A study of Mus musculus with 22 samples.

Results

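The Sez6 family consists of 3 mouse genes, Sez6, Sez6l and Sez6l2, and their RNA was followed across 22 tumour libraries. The genes were taken by symbol from a count table of 48440 Ensembl gene IDs, and all 3 were among the 18929 genes with enough counts to be tested. Sez6 was chosen by its measured counts in these same libraries, namely its difference between combined and Snf5-null tumours. Its values are therefore given as a description with no p-value. Sez6l and Sez6l2 entered by family name, and their differences were tested. The family itself was picked through Sez6, with earlier results of these data known, so their p-values are not free of that choice.

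Sez6, named for a transcript found in neurons after induced seizures, is a single-pass membrane protein whose large extracellular part is built from CUB domains and sushi domains, the repeats also found in complement regulators. Sez6l and Sez6l2 share this architecture. The proteins are known from neurons, where they bear on dendrite branching, synapse formation and the trafficking of kainate-type glutamate receptors. The protease BACE1 cuts Sez6 and Sez6l close to the membrane and releases their ectodomains. SEZ6 is also known as a surface protein of human neuroendocrine cancers such as small cell lung cancer.

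The tumours, labelled as mouse tumour tissue of C57BL strain, fell into 3 genotypes. The SS18-SSX+/- tumours carried the fusion oncogene of synovial sarcoma and are called SS18-SSX, as 3 libraries with Myf5 in the title and 3 with no Cre stated. The SNF5-/- tumours, called Snf5-null, were labelled as lacking Smarcb1 (also named Snf5), as 5 libraries with TATCre and 3 with Myf5 in the title. Smarcb1 is a core subunit of the SWI/SNF chromatin remodelling complex that SS18 also belongs to. The tumours labelled SS18-SSX+/- and Snf5-/- carried both lesions and are called combined, as 4 libraries with TATCre and 4 with Myf5Cre. Myf5Cre expresses the recombinase from a gene of myogenic progenitors, and TATCre is a recombinase protein fused to a peptide that carries it into cells. The titles of all fusion-bearing tumours carry the tag SSM2. Libraries are named by group and by the tag in the title, and those with Myf5 in the title are called Myf5Cre in figures. The same tag can recur in different genotypes. N43L and N43R, both Snf5-null TATCre, share the tag N43. The labels do not say that libraries came from separate animals, so p-values measure the spread between these libraries, which may be technical.

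Total counts ran from 8642648 (SS18-SSX A) to 25177722. Smarcb1, the gene labelled as deleted, was lower in every Snf5-null and combined library than in every SS18-SSX library. Snf5-null and combined tumours share the Snf5-/- label, yet their Smarcb1 ranges did not overlap. How many tested genes separate in these ways was not counted. The source of the remaining Smarcb1 RNA was not tested. It lay at 47.1 to 111 CPM (counts scaled to a common library size with edgeR's TMM factors) in SS18-SSX tumours, 10.6 to 26.9 CPM in Snf5-null tumours and 0.909 to 3.66 CPM in combined tumours. The number prefix of the library descriptions was shared by all Snf5-null and combined libraries and differed in the SS18-SSX libraries. Prefix and genotype therefore cannot be told apart in comparisons with SS18-SSX tumours. Those comparisons are also unmatched in Cre label, as no SS18-SSX title names TATCre. In bulk tissue, fewer cells of a type and less RNA per cell cannot be told apart either.

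The 3 genes lie on different chromosomes of GRCm38 (mm10). Sez6 (ENSMUSG00000000632) lies at chr11:77930800-77979048 on the plus strand, with 5779 bases of exon summed over its transcripts. Sez6l (ENSMUSG00000058153) lies at chr5:112419151-112577185 on the minus strand, with 6070 bases of exon. Sez6l2 (ENSMUSG00000030683) lies at chr7:126950563-126970606 on the plus strand, with 4210 bases of exon. Aligned over the gap-free positions of their longest coding sequences, of 2976, 2895 and 2772 bases, Sez6 and Sez6l were identical at 60.9% of bases, Sez6 and Sez6l2 at 61.3%, and Sez6l and Sez6l2 at 61.9%. The longest stretches that each pair shares are shown because they set how far a read could be assigned to the wrong relative. They are coding exon sequence, given on the strand of the transcript:
Sez6 and Sez6l (chr11:77974562-77974577 and chr5:112440873-112440888): tcaccatccagttcca
Sez6 and Sez6l2 (chr11:77973959-77973973 and chr7:126961919-126961933): acagagccagcctgc
Sez6l and Sez6l2 (chr5:112428447-112428469 and chr7:126967112-126967134): tgctacgagggctttgagctcat
These runs span 16, 15 and 23 bases, and no stretch of 50 bases occurred in more than 1 of the 3 genes. Of the 50-base stretches in the transcripts of Sez6 (6015) and Sez6l (6261), 0 occurred in any other annotated gene. Of the 4394 stretches of Sez6l2, 366 (8.33%) also occurred in Gm21984, an overlapping transcript on the same strand that shares 413 exonic bases with it. Counts of Sez6l2 are uncertain to that extent, and Gm21984 itself had at most 7 counts in any library. Gm6588 lies within Sez6l on the other strand and shares 0 exonic bases with it.

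Sez6l is the member with a tested difference between genotypes, and the RefSeq table of GRCm38.p6 held the 250 bases before its start, at chr5:112577199-112577448 on the minus strand. The sequence shows how CpG dinucleotides, in capitals, are spaced before the start site:
Sez6l: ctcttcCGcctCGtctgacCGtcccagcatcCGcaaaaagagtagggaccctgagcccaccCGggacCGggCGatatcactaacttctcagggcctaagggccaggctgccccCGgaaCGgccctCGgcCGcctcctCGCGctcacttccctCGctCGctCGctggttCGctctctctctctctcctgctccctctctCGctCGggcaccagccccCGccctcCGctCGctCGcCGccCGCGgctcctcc
The window held 26 CpG and 69.6% G or C, and 9.59% of the 32851 windows of the same length in the table held as many CpG, with a median of 6. It held 2 GC boxes (GGGCGG on either strand, which can include a CpG counted above), a motif present in 32.7% of the windows. It held 0 E-boxes (CANNTG, which reads alike on both strands), a motif present in 66.2% of them. Expression data alone do not bear on how these letters are used.

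Sez6 varied more between tumours than either relative, from 0.249 to 5264 CPM. In the SS18-SSX tumours with Myf5 in the title it stood at 195 CPM in N381, 4374 in N428 and 712 in N460, and in those with no Cre stated at 504 in A, 5264 in B and 4295 in N2. In these 6 libraries it fell at 2 levels, 195 to 712 CPM in 3 libraries and 4295 to 5264 CPM in the other 3, with both levels present under either title. The highest value was 27.0 times the lowest. At the higher level, Sez6 alone took 0.504% to 0.552% of all counts in the library.

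In Snf5-null tumours Sez6 was low in every library. The TATCre libraries had 7.09 CPM (N1), 11.2 (N49), 1.38 (N43L), 4.64 (N43R) and 7.71 (N51), and the libraries with Myf5 in the title had 2.49 (N30), 0.249 (N31) and 2.0 (N33). The highest Snf5-null value, 11.2 CPM, lay under the lowest SS18-SSX value, 195 CPM. The comparison of these genotypes called 48.2% of all tested genes in either direction, and the share that separate completely was not counted.

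The combined tumours fell on both sides of that gap. With Myf5Cre, Sez6 stood at 766 CPM in N1, 442 in N2, 296 in N3 and 399 in N4, a narrow range in which the highest was 2.58 times the lowest. With TATCre it stood at 16.2 CPM in N49, 220.5 in 78774, 1176 in 78777 and 6.61 in 78780, where the highest was 178 times the lowest. Library 78780 lay inside the Snf5-null range and N49 just above it, while 78774 and 78777 lay among the SS18-SSX and combined Myf5Cre libraries.

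**Figure D1:**
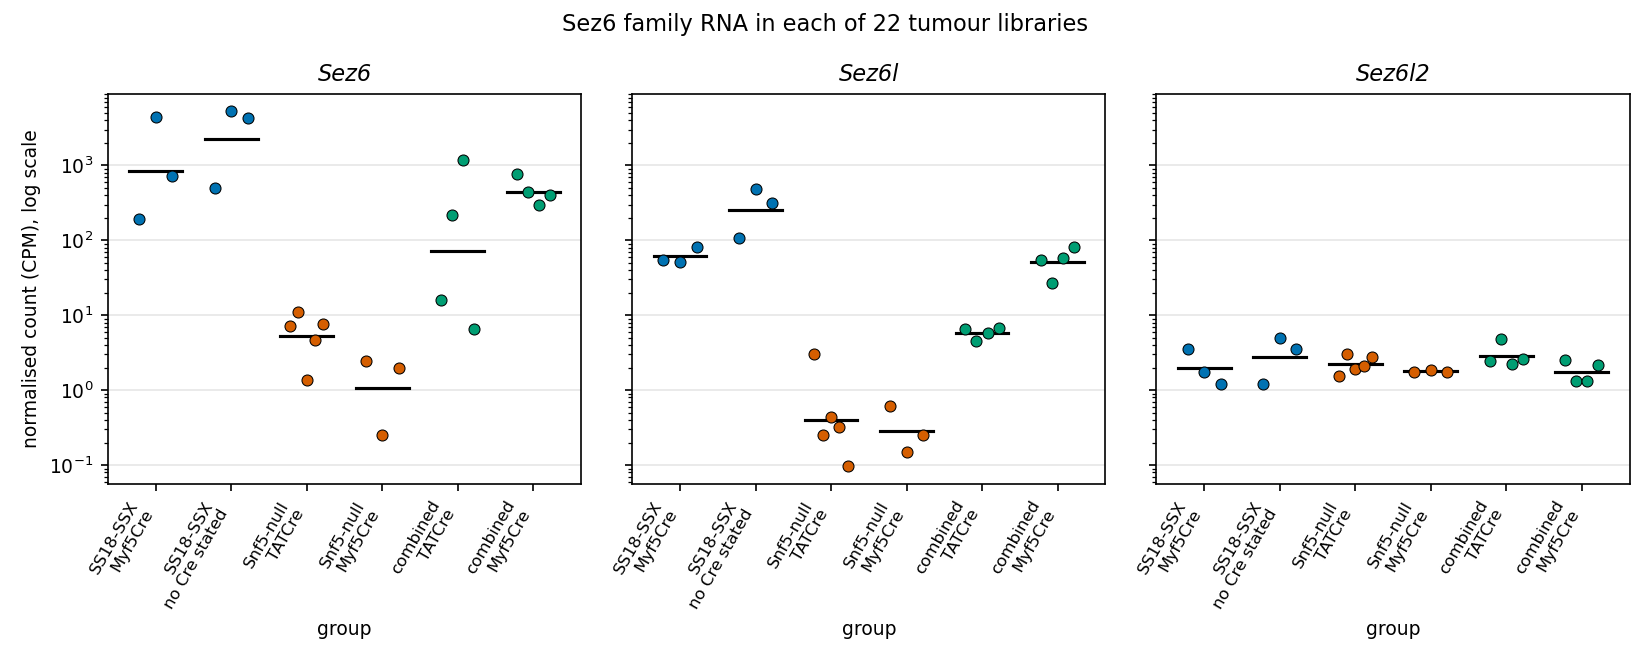
Each point is 1 of 22 libraries, the vertical axis is the normalised count in CPM on a log scale, and bars are group means taken on the log scale. Sez6 in the 4 combined TATCre libraries runs from 6.61 to 1176 CPM, Sez6l in the same libraries stays between 4.5 and 6.76 CPM, and Sez6l2 stays between 1.20 and 4.99 CPM in all libraries.

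The fitted difference in Sez6 between combined and Snf5-null tumours was a log2 fold change of 7.01 ± 1.16 (SE, 8 libraries against 8), or 129-fold higher. This is the contrast for which Sez6 was chosen. Against SS18-SSX tumours Sez6 in combined tumours differed by -2.56 ± 0.89 (SE, 8 against 6), and the ranges overlapped. This value ran from -3.63 without 78777 to -1.61 without N428. Between Snf5-null and SS18-SSX tumours the log2 difference was -9.58 ± 1.32 (SE, 8 against 6), or -8.46 without N428. With Myf5Cre libraries alone the combined to Snf5-null difference was 8.09 ± 1.33 (SE), and with TATCre libraries alone it was 5.71 ± 1.42 (SE). Without the library 78777 it was 5.95 ± 0.97 (SE).

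By Cre label, Sez6 differed by 0.42 ± 1.15 (log2, SE) between combined tumours with Myf5Cre and with TATCre, less than the spread between libraries. This value rested on 78777, without which it was 2.55 ± 1.19. Within Snf5-null tumours the Cre difference in Sez6 was -2.02 ± 1.34, and between the SS18-SSX groups it was -0.93 ± 1.33, both on the log2 scale with SE. Without N428 the difference between the SS18-SSX groups was -2.90 ± 1.57.

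Averaged over Cre labels, Sez6l showed the same order of genotypes with less scatter. In SS18-SSX tumours with Myf5 in the title it stood at 55.1 CPM (N381), 50.9 (N428) and 81.3 (N460), and in those with no Cre stated at 106 (A), 484 (B) and 317 (N2). Each library with no Cre stated was above each with Myf5 in the title. N428, among the highest for Sez6, had the lowest Sez6l of the 6.

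In Snf5-null tumours Sez6l was detected at few counts. The TATCre libraries had 3.08 CPM in N1, 0.253 in N49, 0.441 in N43L, 0.328 in N43R and 0.0976 in N51, and those with Myf5 in the title had 0.621 in N30, 0.149 in N31 and 0.250 in N33. These values rest on 2 to 11 counts per library, except for 53 counts in N1. N1 stood apart from the other 7 libraries.

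The combined tumours separated by Cre label. With TATCre, Sez6l stood at 6.52 CPM (N49), 4.5 (78774), 5.78 (78777) and 6.76 (78780), and with Myf5Cre at 54.5 (N1), 26.6 (N2), 57.5 (N3) and 82.0 (N4). The TATCre values lay above every Snf5-null library and below every combined Myf5Cre library. The share of all tested genes that separate in this way was not counted. The combined Myf5Cre range, 26.6 to 82.0 CPM, overlapped that of the SS18-SSX tumours with Myf5 in the title, 50.9 to 81.3 CPM.

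Sez6l was higher in the combined than the Snf5-null tumours by a log2 fold change of 5.07 ± 0.61 (SE, edgeR quasi-likelihood test with Benjamini-Hochberg adjusted p = 3.63e-06), or 33.5-fold, in 8 of 8 libraries above all 8 Snf5-null libraries. In this comparison 29.1% of the 18929 genes tested were called higher at an adjusted p below 0.05 and 20.5% were called lower. The share of tested genes with such a complete separation of libraries was not counted. Without N1 of the Snf5-null TATCre tumours the log2 fold change was 5.91. Within the Myf5Cre libraries alone it was 7.16 ± 0.60 (edgeR adjusted p = 5.61e-05), and within the TATCre libraries alone 2.76 ± 0.88 (edgeR adjusted p = 0.0523), which did not pass the threshold.

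Against SS18-SSX tumours Sez6l was lower in combined tumours, with a log2 fold change of -2.93 ± 0.51 (SE, edgeR adjusted p = 0.000232), where 23.1% of all tested genes were called higher and 21.9% lower. Among libraries with Myf5 in the title alone, the only Cre label that both genotypes share, the difference was -0.32 ± 0.41 (SE, edgeR adjusted p = 0.553). The call was lost there. In the difference over all libraries, genotype cannot be told apart from the unmatched labels, TATCre and no Cre stated. Snf5-null tumours had less Sez6l than SS18-SSX tumours by -8.00 ± 0.70 (log2, SE, edgeR adjusted p = 3.16e-07), in a comparison that called 48.2% of all genes in either direction. Without N1 this log2 difference was -8.80. The 3 genotype comparisons share libraries and are not independent of each other.

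Sez6l also differed by Cre label within the combined tumours. It was higher with Myf5Cre than with TATCre by a log2 fold change of 3.23 ± 0.70 (SE, 4 libraries against 4, edgeR adjusted p = 0.0272), or 9.36-fold, in 4 of 4 libraries above all 4 TATCre libraries. Of all genes tested, 1.82% were called in this comparison, and the share that separate completely was not counted. The call was lost without any one of TATCre N49 (edgeR adjusted p = 0.0606), Myf5Cre N1 (0.0501), N3 (0.0673) or N4 (0.092), while the log2 fold change stayed between 2.97 and 3.46 over all 22 libraries left out in turn.

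In Snf5-null tumours the Cre labels differed by -1.28 ± 0.86 (log2, SE, edgeR adjusted p = 0.447), in a comparison that called 4.97% of genes. Without N1 the value was 0.31 (edgeR adjusted p = 0.823). The difference between the Cre effect in combined and that in Snf5-null tumours was 4.51 ± 1.11 (log2, SE, edgeR interaction test, adjusted p = 0.0375), and 2.42% of genes passed this test. That call was also lost without SS18-SSX N2 (edgeR adjusted p = 0.0501), Snf5-null N43L (0.0514), N31 (0.131) or N33 (0.114), combined TATCre N49 (0.0527), or combined Myf5Cre N1 (0.0576), N3 (0.0627) or N4 (0.0722). Without Snf5-null N1 it was 2.95 (edgeR adjusted p = 0.0401).

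Between the SS18-SSX tumours with Myf5 in the title and those with no Cre stated, Sez6l differed by -2.28 ± 0.77 (log2, SE, edgeR adjusted p = 0.128). The 3 libraries against 3 did not overlap, and the share of all tested genes that separate in this way was not counted. The difference did not pass the threshold, in a comparison that called 2.11% of genes. DESeq2 gave an adjusted p of 0.0463 for it, and edgeR gave 0.0211 without Snf5-null N1. The number prefix of the descriptions differs between these groups in the same way as the title.

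Sez6l2 was low in all 22 libraries, at 1.20 to 4.99 CPM and 11 to 84 counts. Its mean was 2.71 ± 1.56 CPM (SD, n = 6) in SS18-SSX tumours, 2.09 ± 0.521 (SD, n = 8) in Snf5-null tumours and 2.44 ± 1.11 (SD, n = 8) in combined tumours, and the 3 ranges overlapped. Its highest values were 4.99 CPM in SS18-SSX B and 4.87 CPM in combined TATCre 78774. The lowest were 1.20 CPM in SS18-SSX A and 1.21 CPM in SS18-SSX N460, so the widest range lay within 1 genotype.

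No difference in Sez6l2 passed the test in the 7 comparisons. The log2 fold change was 0.24 ± 0.32 (SE, edgeR adjusted p = 0.562) for combined against Snf5-null tumours, -0.17 ± 0.34 (0.704) for combined against SS18-SSX and -0.41 ± 0.35 (0.345) for Snf5-null against SS18-SSX. The Cre difference was -0.73 ± 0.45 (edgeR adjusted p = 0.447) in combined tumours and -0.35 ± 0.47 (0.756) in Snf5-null tumours, and the difference between these was -0.38 ± 0.65 (0.833). The SS18-SSX groups differed by -0.59 ± 0.52 (edgeR adjusted p = 0.659). With SEs of 0.32 to 0.65, changes of that size were not detectable at these counts. The unadjusted edgeR p-values of Sez6l2 ran from 0.122 upward, and DESeq2 called it in 0 of the 7 comparisons.

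**Figure D2:**
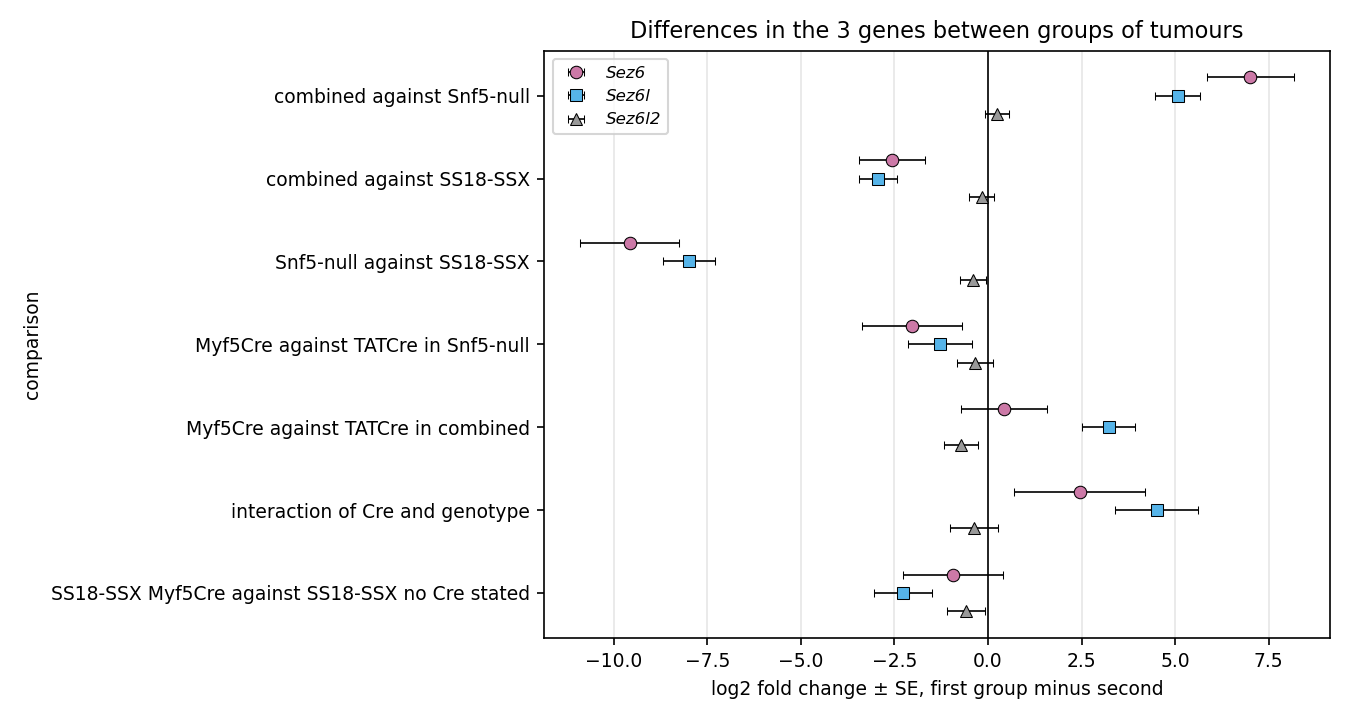
Points are log2 fold changes of the 3 genes (horizontal axis) with bars of 1 SE in each of the 7 comparisons, as the first named group minus the second. Sez6 and Sez6l lie far from 0 in the 3 genotype comparisons, and Sez6l2 lies between -0.73 and 0.24 in all 7.

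Levels of different genes were compared as CPM per kb of exon. Per length, Sez6 exceeded Sez6l in all 22 libraries, by 3.72 to 90.3 times in SS18-SSX tumours, 1.75 to 83.0 times in Snf5-null tumours and 1.03 to 213 times in combined tumours. The lowest ratio was in combined TATCre 78780 and the highest in 78777, 2 libraries of 1 group whose Sez6l levels were alike. Sez6l exceeded Sez6l2 per length in 6 of 6 SS18-SSX libraries, 7 of 8 combined libraries and 1 of 8 Snf5-null libraries, the last being N1. Combined TATCre 78774 was the exception among combined tumours, with a ratio of 0.641.

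Ranked by level per length, Sez6 lay above 96.6% to 99.9% of all tested genes in SS18-SSX tumours, and above 9.53% to 40.9% in Snf5-null tumours. In combined Myf5Cre tumours it lay above 93.9% to 99.3% of genes. In combined TATCre tumours it lay above 47.5% (N49), 93.4% (78774), 99.2% (78777) and 36.9% (78780). Sez6l lay above 4.19% to 26.9% of genes in Snf5-null tumours and 70.0% to 98.7% in SS18-SSX tumours, and Sez6l2 above 15.9% to 37.6% over all libraries.

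**Figure D3:**
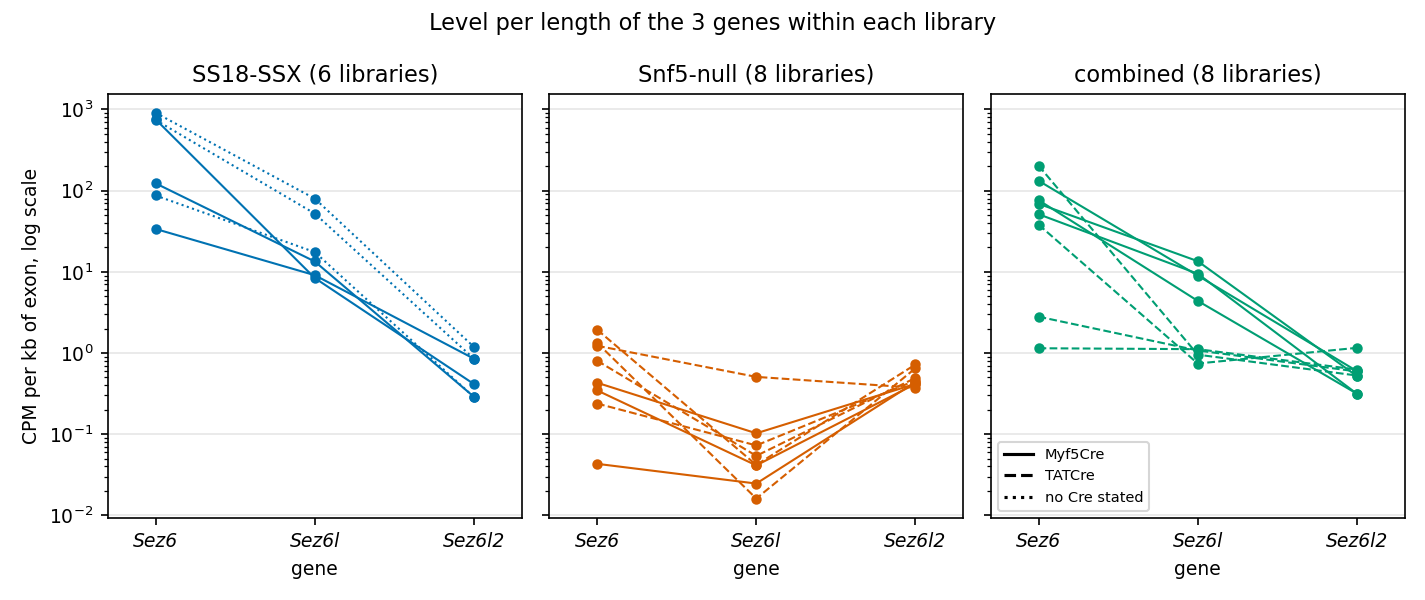
Each line joins the 3 genes within 1 library, with CPM per kb of exon on a log scale and a panel for each genotype (6, 8 and 8 libraries). Lines descend from Sez6 to Sez6l2 in SS18-SSX tumours, dip at Sez6l in 7 of 8 Snf5-null libraries, and fan out at Sez6 among combined TATCre libraries.

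Over the 22 libraries the log2 CPM of Sez6 and Sez6l had a Pearson r of 0.888 (Spearman rho 0.789), given as a description because the libraries fall into genotype clusters. With the mean of each of the 6 groups subtracted, r was 0.118 (rho 0.0638). Sez6l2 had r of 0.176 with Sez6 and 0.0862 with Sez6l over the 22 libraries, and 0.203 and 0.0366 with group means subtracted. Sez6 and Sez6l thus shared the order of the genotypes, while r was low once the group means were removed.

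The 2 nearest tested protein-coding genes on either side of each member were then read in the same comparisons. Pipox, which encodes a peroxisomal enzyme that oxidises pipecolic acid and sarcosine, lies 36703 bases from Sez6 (chr11:77880615-77894096, minus strand). It stood at 5.61 to 82.1 CPM in SS18-SSX tumours and 0 to 0.760 CPM in Snf5-null tumours. The single 0, in N51, allows up to 0.146 CPM (3 counts, counting error only). In combined TATCre tumours Pipox stood at 0.366 CPM in N49, 11.8 in 78774, 27.5 in 78777 and 0.300 in 78780, and in combined Myf5Cre tumours at 14.6 in N1, 15.0 in N2, 29.8 in N3 and 39.4 in N4. The 2 combined libraries with low Sez6 were those with low Pipox. Among combined Myf5Cre libraries the order differed, as N1 had the highest Sez6 and the lowest Pipox.

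Pipox was higher in the combined than the Snf5-null tumours by a log2 fold change of 6.69 ± 1.14 (SE, edgeR adjusted p = 0.000128), and it was lower in Snf5-null than in SS18-SSX tumours by -7.58 ± 1.19 (edgeR adjusted p = 6.01e-05). Combined and SS18-SSX tumours differed in Pipox by -0.89 ± 0.82 (edgeR adjusted p = 0.386), which did not pass the test. On the far side of Pipox, Myo18a, an unconventional myosin, differed by 0.25 ± 0.32 between combined and Snf5-null tumours (edgeR adjusted p = 0.525). Against SS18-SSX tumours Myo18a was lower in combined tumours by -1.56 ± 0.34 (log2, SE, edgeR adjusted p = 0.00125) and in Snf5-null tumours by -1.82 ± 0.35 (0.000349).

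On the other side of Sez6, both neighbours were called in combined against Snf5-null tumours, where 29.1% of all genes were called higher. Phf12, a PHD-finger protein of the Sin3 corepressor complex that lies 3705 bases away, was higher in the combined than the Snf5-null tumours by 0.72 ± 0.16 (log2, SE, edgeR adjusted p = 0.00134). Dhrs13, a short-chain dehydrogenase 53231 bases away, was higher by 1.56 ± 0.27 (log2, SE, edgeR adjusted p = 0.000133). Against SS18-SSX tumours Phf12 was lower in combined tumours by -0.75 ± 0.17 (log2, SE, edgeR adjusted p = 0.00154). Dhrs13 was higher there by 1.08 ± 0.28 (edgeR adjusted p = 0.00466), where Sez6 stood at -2.56. Between Snf5-null and SS18-SSX tumours Phf12 differed by -1.47 ± 0.17 (edgeR adjusted p = 3.75e-06) and Dhrs13 by -0.48 ± 0.28 (0.158).

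Of the 4 neighbours of Sez6l, 0 were called higher in the combined than the Snf5-null tumours, where 29.1% of all genes were. Asphd2 differed by 0.27 ± 0.40 (log2, SE, edgeR adjusted p = 0.598), Hps4 by -0.13 ± 0.16 (0.531) and Myo18b by -1.45 ± 0.76 (0.123) between combined and Snf5-null tumours. Grk3, a kinase of G protein-coupled receptors 333296 bases away, was lower in combined tumours by -2.75 ± 0.53 (log2, SE, edgeR adjusted p = 0.000379). Against SS18-SSX tumours Grk3 was also lower, by -2.88 ± 0.54 (edgeR adjusted p = 0.000453), beside -2.93 for Sez6l. Around Sez6l2, Kctd13 differed by 0.13 ± 0.20 (log2, SE, edgeR adjusted p = 0.594), Tmem219 by 0.43 ± 0.18 (0.0535) and Cdiptos, which overlaps Cdipt on the other strand, by -0.26 ± 0.43 (0.64). Cdipt, the phosphatidylinositol synthase, was higher in the combined than the Snf5-null tumours by 0.46 ± 0.13 (log2, SE, edgeR adjusted p = 0.0078). This difference is to be read against the median of 0.235 over all tested genes, which fell to 0.120 under RLE scaling. Against SS18-SSX tumours Tmem219 was higher in combined tumours by 0.93 ± 0.20 (log2, SE, edgeR adjusted p = 0.00113), while Kctd13, Cdiptos and Cdipt were not called.

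**Figure D4:**
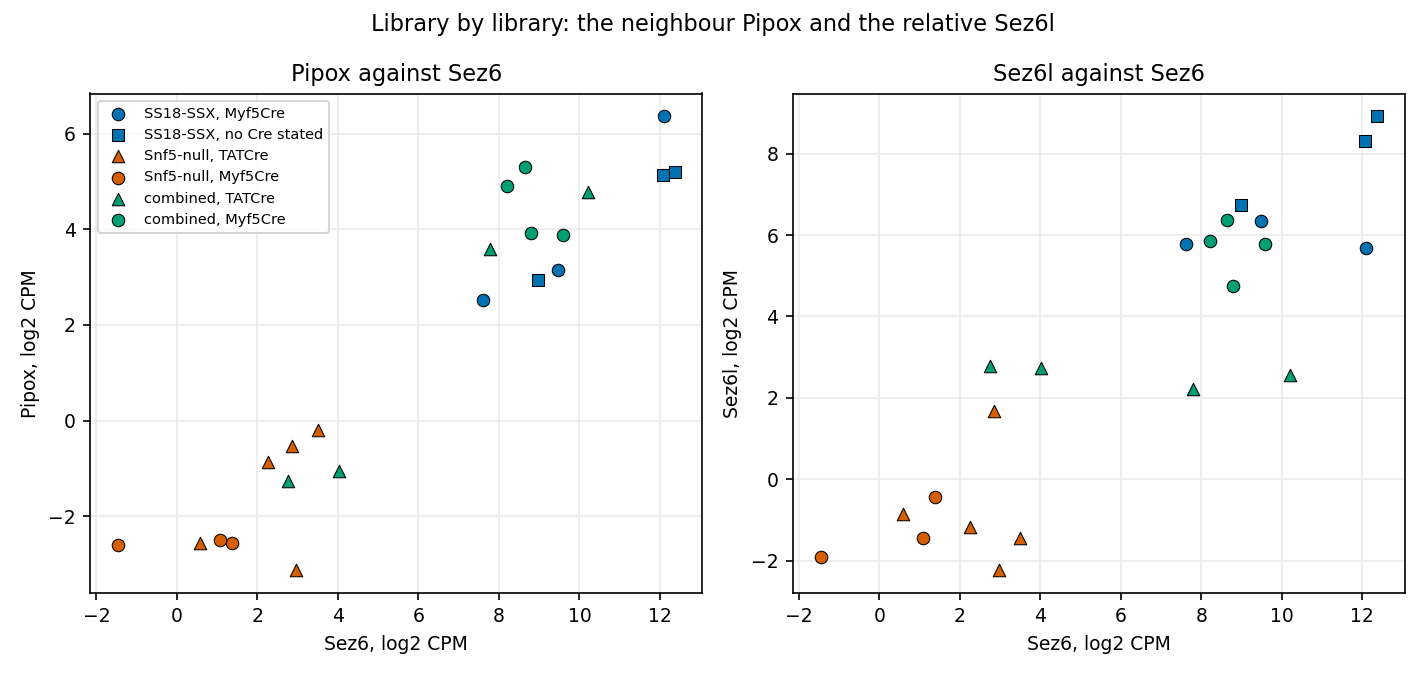
Each point is 1 of 22 libraries, with log2 CPM of Sez6 on the horizontal axis and of Pipox (left) or Sez6l (right) on the vertical axis. The combined TATCre libraries N49 and 78780 lie with the Snf5-null libraries in the left panel, while on the right all 4 combined TATCre libraries share 1 level of Sez6l.

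Among all tested genes, those with the highest Pearson r to Sez6 over the 22 libraries were Pipox (r = 0.953), Irx4 (0.932) and Sall1 (0.930), which encode transcription factors, Cxxc4 (0.929), an inhibitor of Wnt signalling, and Kif28 (0.925), a kinesin. With group means subtracted the 5 were Lig3 (r = 0.897), a DNA ligase, Yeats2 (0.882), Irx4 (0.854), Pipox (0.847) and Etnk2 (0.825). Irx4 and Pipox appear in both sets of 5. The mean of Irx4 was 7.87 CPM in combined, 6.00 in SS18-SSX and 0.0680 in Snf5-null tumours.

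Nearest to Sez6l over the 22 libraries were Bcor (r = 0.942), a corepressor of polycomb complexes, Gm29681 (0.942), Auts2 (0.939), Gata2 (0.928) and Fam222a (0.927). With group means subtracted they were Nkd1 (r = 0.819), a feedback inhibitor of Wnt signalling, Grin2c (0.815), an NMDA receptor subunit, F2rl3 (0.796), Gprin1 (0.792) and Eno1b (0.789). The mean of Bcor was 387 CPM in combined, 864 in SS18-SSX and 60.2 in Snf5-null tumours. The sets for Sez6 and Sez6l had 0 genes in common under either measure printed here.

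Nearest to Sez6l2 were Vwf (r = 0.777), the von Willebrand factor of endothelium and platelets, 1700123O21Rik (0.753), Pcdhb13 (0.718), Lmf1 (0.715) and Gm17228 (0.712). With group means subtracted they were Sfswap (r = 0.872), 1700123O21Rik (0.867), Gm8850 (0.839), Gm44937 (0.825) and 2900022M07Rik (0.822). All these are correlations between libraries that share genotype and depth, chosen as the highest among 18929 genes, and by Spearman's rho only 1 to 3 of each 5 remained.

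The counts of each gene list are to be read against all tested genes, of which 29.1% were higher and 20.5% lower in combined against Snf5-null tumours, and 23.1% and 21.9% against SS18-SSX tumours. The lists were chosen with earlier results of these data known. Of 12 tested genes with CUB or sushi domains, 2 were higher and 7 lower in the combined than the Snf5-null tumours, with a median log2 fold change of -2.49 against 0.235 over all tested genes. Susd4, a sushi-domain inhibitor of complement, was highest at 4.38 ± 0.78 (log2, SE, edgeR adjusted p = 0.00021), and Susd3 was lowest at -4.89 ± 0.52 (edgeR adjusted p = 1.09e-06). Against SS18-SSX tumours 6 of 12 were lower, led by Csmd1 at -3.14 ± 0.92 (edgeR adjusted p = 0.00994), and none were higher by edgeR at an adjusted or unadjusted p below 0.05 or by DESeq2. The median there was -1.5 against -0.0875 over all tested genes.

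Of 17 tested complement components and regulators, 12 were lower and 1 higher in combined tumours than in Snf5-null ones, with a median of -2.33, and 4 were not called. C4b, a gene of complement C4 with a near-identical copy that may share its reads, was lowest at -4.32 ± 1.13 (log2, SE, edgeR adjusted p = 0.00443), and Cd46, a membrane regulator, was higher by 1.56 ± 0.30 (edgeR adjusted p = 0.000357). Their summed level was 161 to 1207 CPM in combined, 1476 to 3955 in Snf5-null and 274 to 1272 in SS18-SSX tumours. Leucocyte markers moved with them, with 9 of 10 lower in the combined than the Snf5-null tumours, led by Itgam at -5.88 ± 0.55 (edgeR adjusted p = 2.76e-07). Leucocyte marker sums were 22.4 to 236 CPM in combined, 605 to 2472 in Snf5-null and 32.8 to 247 in SS18-SSX tumours, and their part in these results was not tested. Against SS18-SSX tumours 7 of the 17 complement genes were lower, led by Cfd at -4.26 ± 1.5 (edgeR adjusted p = 0.0271). None were higher by edgeR's adjusted p or DESeq2, and 1 was at an unadjusted edgeR p below 0.05.

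The proteases that cut membrane proteins such as Sez6 were read next. Of 10 tested sheddases and gamma-secretase subunits, 5 were lower and 1 higher in the combined than the Snf5-null tumours, with a median of -0.33. Bace2 was lower by -1.66 ± 0.51 (log2, SE, edgeR adjusted p = 0.0124), and Aph1a, a gamma-secretase subunit, was higher by 0.48 ± 0.16 (edgeR adjusted p = 0.0214), a call that ended under RLE scaling. Against SS18-SSX tumours 3 were lower and none higher by edgeR, adjusted or not, or by DESeq2. The 3 were Bace2 at -2.15 ± 0.54 (edgeR adjusted p = 0.00358), Bace1, the enzyme that cuts Sez6, at -0.83 ± 0.30 (0.0315), and Psen2 at -0.49 ± 0.17 (0.0226).

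Among 8 other BACE1 substrates, 1 was higher and 3 lower in the combined than the Snf5-null tumours, with a median of -0.62. The higher one was Aplp1, an amyloid precursor-like protein, at 1.71 ± 0.46 (log2, SE, edgeR adjusted p = 0.00546), and the lowest was Nrg1, a ligand of ErbB receptors, at -4.56 ± 0.56 (edgeR adjusted p = 5.15e-06). Against SS18-SSX tumours 6 of 8 were lower and none higher by edgeR, adjusted or not, or by DESeq2, with a median of -1.78. Scn2b, a sodium channel subunit, was lowest at -4.5 ± 0.73 (edgeR adjusted p = 0.000149).

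Of 9 kainate and AMPA receptor subunits, 4 were higher and 1 lower in the combined than the Snf5-null tumours, with a median of 0.71. Gria2 was highest at 4.41 ± 1.09 (log2, SE, edgeR adjusted p = 0.00306) from a mean of 0.168 CPM in Snf5-null to 2.92 CPM in combined tumours, and Gria4 was lowest at -1.62 ± 0.63 (edgeR adjusted p = 0.0409). Against SS18-SSX tumours 2 were higher and 3 lower, with Gria4 at 3.64 ± 0.82 (edgeR adjusted p = 0.00174) and Gria3 at -3.66 ± 0.83 (0.00188) at the ends.

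Neuron markers were called in both directions. Of 14 tested, 6 were higher and 3 lower in the combined than the Snf5-null tumours, with a median of 1.38. Over all tested genes 29.1% were higher and 20.5% lower, so the share of neuron markers called lower was near that background. Gad1, which makes the transmitter GABA, was highest at 5.91 ± 0.96 (log2, SE, edgeR adjusted p = 8.52e-05), and Snap25, a synaptic SNARE protein, was lowest at -5.74 ± 0.92 (edgeR adjusted p = 7.68e-05). Against SS18-SSX tumours 3 were higher and 1 lower, with Nefl at 2.68 ± 0.71 (edgeR adjusted p = 0.0052) and Map2 at -4.60 ± 0.82 (0.000303) at the ends. Summed neuron markers were 44.5 to 299.9 CPM in combined, 112 to 318 in SS18-SSX and 132 to 349 in Snf5-null tumours, so the genotypes overlapped. In the combined TATCre group the sums were 299.9 CPM in N49, 67.7 in 78774, 170 in 78777 and 129 in 78780, an order unlike that of Sez6.

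Neuroendocrine markers were higher in 5 and lower in 0 of 11 tested in combined against Snf5-null tumours (also 0 lower by edgeR's unadjusted p and by DESeq2), with a median of 2.13. Against SS18-SSX tumours 2 were higher and 3 lower, with Calca at 5.77 ± 1.14 (edgeR adjusted p = 0.000656) and Insm1 at -3.87 ± 0.97 (0.00363) at the ends. The sums were 33.2 to 551 CPM in combined, 297 to 698 in SS18-SSX and 62.3 to 332 in Snf5-null tumours. Library 78780, with the lowest Sez6 of the combined tumours, had the lowest sum, 33.2 CPM, while N49, with the next lowest Sez6, had 328 CPM. The part of neuronal or neuroendocrine cells in the levels of Sez6 and Sez6l was not tested.

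The remaining marker lists are named for other cell types. Whether their RNA came from tumour cells or from other cells of the tissue was not tested. Of 6 tested Schwann cell markers 2 were higher and 3 lower in the combined than the Snf5-null tumours, from Erbb3 at 2.97 ± 0.67 (log2, SE, edgeR adjusted p = 0.0015) to Mbp at -4.5 ± 0.58 (7.08e-06), and Mbp alone was lower than in SS18-SSX tumours, at -2.31 ± 0.55 (0.00268). Of 8 fibroblast markers 1 was higher and 5 lower, from Pdgfra at 2.59 ± 0.34 (edgeR adjusted p = 7.93e-06) to Lum at -4.63 ± 0.99 (0.000978). Of 7 endothelial markers, Cldn5 was higher at 1.38 ± 0.35 (edgeR adjusted p = 0.00347) while Tek (-1.05 ± 0.33, 0.0147) and Pecam1 (-0.90 ± 0.32, 0.0252) were lower, and Tek was also lower against SS18-SSX tumours, at -1.19 ± 0.35 (0.0102). Of 8 skeletal muscle markers 4 were lower than in Snf5-null tumours, led by Pvalb at -5.21 ± 1.5 (edgeR adjusted p = 0.00834). The muscle sum ran from 2.09 to 6923 CPM within SS18-SSX tumours alone.

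Against SS18-SSX tumours 5 of 10 leucocyte markers were lower, led by Cd3e at -4.38 ± 1.19 (log2, SE, edgeR adjusted p = 0.00757). By edgeR 0 muscle and 0 fibroblast markers were called there, with 2 and 1 lower at an unadjusted p below 0.05 and 3 and 1 lower by DESeq2. Combined TATCre N49 and 78780 and SS18-SSX A had less Sez6 than the other libraries of their groups. A was low only in that sense, at 504 CPM. Their marker sums were low for some lists and high for others, and only extremes are named. In SS18-SSX N381, with the lowest Sez6 of its genotype (195 CPM), the neuroendocrine sum, 297 CPM, was the lowest of its genotype and the Schwann cell sum, 92.9 CPM, the highest. Snf5-null libraries, all low in Sez6, are not listed in this way. In combined TATCre N49 the Schwann cell sum, 5.27 CPM, was the lowest of the 22 libraries. In SS18-SSX A the neuron and endothelial sums, 112 and 103 CPM, were the lowest of its genotype. In 78780 the fibroblast sum, 712 CPM, was the lowest of the 22 libraries, against 1325 to 9967 CPM in the other combined tumours. The Schwann cell sum of 78780, 124 CPM, was the highest of the 22 libraries. In combined TATCre N49 the neuron, fibroblast and leucocyte sums, 299.9, 9967 and 236 CPM, were the highest of the combined tumours. In SS18-SSX A the muscle and leucocyte sums, 6923 and 247 CPM, were the highest of its genotype. The part of any cell type in the values of Sez6 was not tested.

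**Figure D5:**
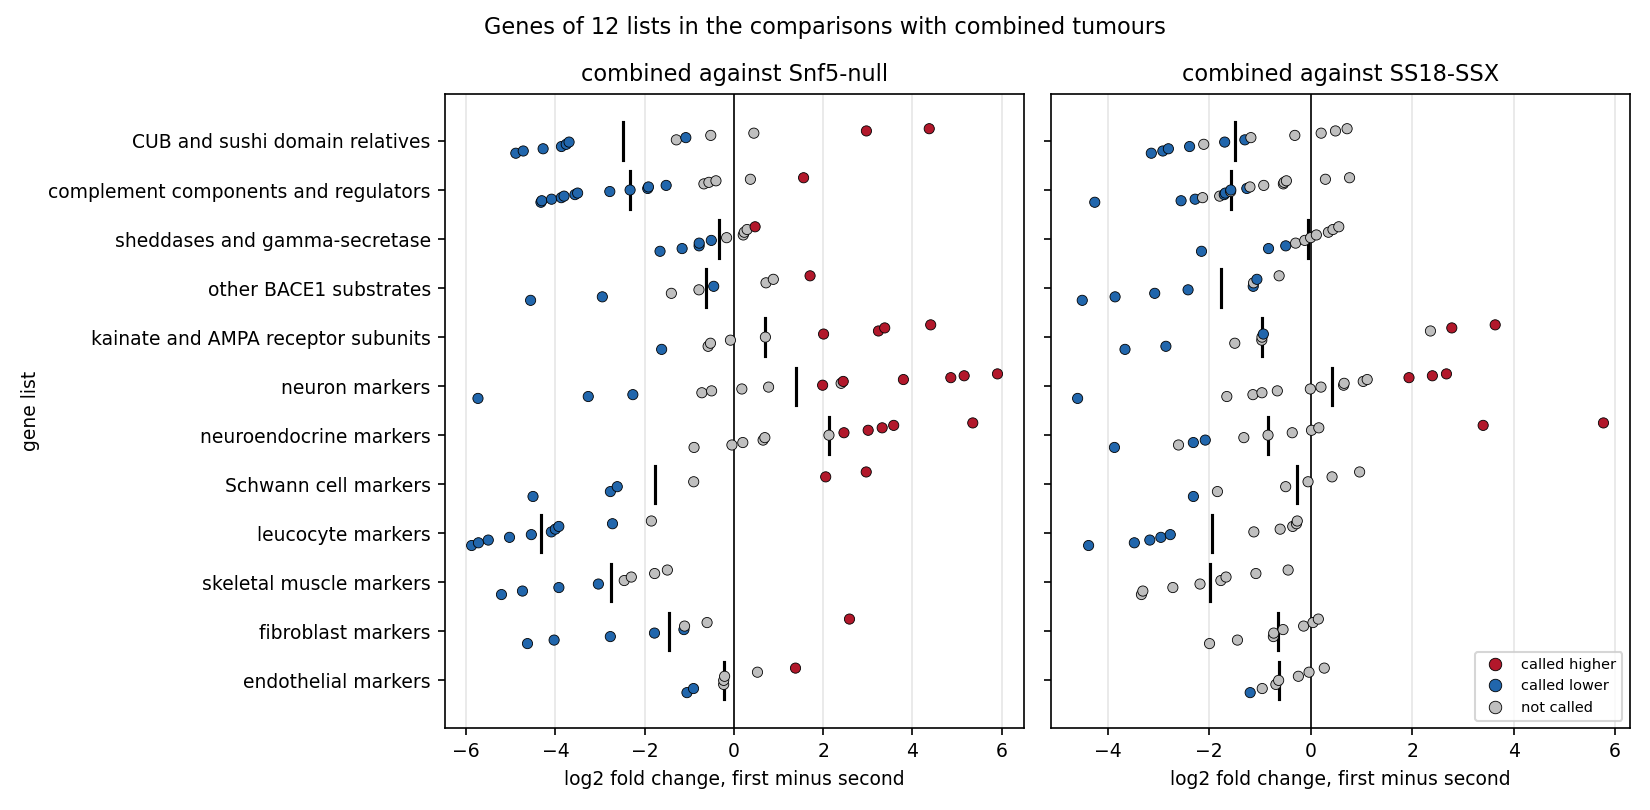
Each point is a tested gene of 1 of 12 lists, placed by its log2 fold change in combined against Snf5-null (left) and combined against SS18-SSX tumours (right), coloured by its edgeR call, with a bar at the list's median. In the left panel the 10 leucocyte genes lie to the left of 0, complement genes have their median at -2.33 with Cd46 at 1.56, and kainate and AMPA receptor, neuron and neuroendocrine genes spread to both sides.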

How the data were processed

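RNA-seq of 22 mouse tumour libraries was analysed from 1 deposited table of whole-number read counts per Ensembl gene. The authors made it from stranded mRNA libraries (TruSeq Stranded mRNA, per the labels' protocols). Tools listed in the submitters' processing notes, with no role or order, are STAR 2.7.5a, RSEM, featureCounts, DESeq2 and cutadapt, and the build is mm10. The strand setting and the treatment of reads with several matches are not given in the sources used here. Groups came from titles and genotype labels.

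Counts were tested with edgeR 4.0.16 (R 4.3.3) by quasi-likelihood in 1 model of the 6 groups. Genes passed filterByExpr (minimum count 10), libraries were scaled by TMM, and genotype differences average the groups of a genotype equally. P-values were Benjamini-Hochberg adjusted over 18929 genes, which held 99.9% of all counts, with calls at 0.05. SEs are the log2 fold change over the square root of F. Log2 CPM used a prior count of 2. Exon lengths and positions came from GENCODE M21 (GRCm38), which held 48058 of the 48440 IDs. The procedure was tested on simulated data. Total counts of 8642648 to 25177722 limit the precision of low genes. Replicate libraries differed beyond sampling noise and each counted once, though this does not show that they came from separate animals.

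The members and the 12 gene lists were chosen with earlier results of these data known. The text names the 3 members, Smarcb1, the 2 nearest tested protein-coding genes on either side of each member, the 5 genes with the highest Pearson r to each, and in each list the called genes with the largest change in each direction, or all where at most 3 were called. One gene that this rule would name is not reported here. Alternatives were RLE scaling, no low-count filter, DESeq2 1.42.0, genotype alone, only the groups compared, 1 Cre label alone, robust spread estimates, summed libraries, leaving out each library and, added after seeing the data, a block of shared title tags.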

Additional observations from a re-analysis of the deposited data

Results flagged for a closer look

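Sez6l stood at 3.08 CPM in the Snf5-null TATCre library N1, far from the 0.0976 to 0.441 CPM of the other 4 libraries of its group. Sez6l2 stood at 4.87 CPM in the combined TATCre library 78774, far from the 2.22 to 2.63 CPM of the other 3. A gap of this size relative to the group's range turns up by chance in about 1 in 20 groups of normally distributed values. In all, 18 sets were examined, counting each gene in each group of 4 or 5 libraries on the CPM and on the log2 scale. Both libraries were flagged on the CPM scale and neither on the log2 scale. The Cre difference in Sez6l was larger in combined than in Snf5-null tumours by 4.51 on the log2 scale (edgeR interaction test, adjusted p = 0.0375), a call that leaving out any of 8 single libraries ended.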

How the results depend on the processing

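Of 227 values recomputed under alternatives other than leaving out a library, 205 stayed the same, as did 559 of 616 with 1 library left out. For Sez6l and Sez6l2 this meant the same direction and side of the threshold, and for counts of genes a change within 1.5 times. For Sez6, which has no p-value, it meant the same direction and a change under 1.99 log2 units, its pooled within-group SD. That margin is wide, and values of -0.93 and -2.90 between the SS18-SSX groups counted as the same. The 6 groups share at most 1 title tag pairwise, but the combined and Snf5-null genotypes share 2, N1 and N49, and nothing in the labels says that a tag pairs tumours. With these tags as a replicate block, chosen after seeing the data, combined against Snf5-null tumours gave 9163 genes, Sez6 6.94, Sez6l 5.43 (edgeR adjusted p = 1.31e-06) and Sez6l2 0.23 (0.596), and no call on a member changed. No paired analysis was possible because of a lack of shared tags in the other comparisons, which share fewer than 2. Genes called in combined against Snf5-null tumours fell from 9383 to 5696 with Myf5Cre libraries alone and 3419 with TATCre libraries alone, where fewer libraries were fitted. The smaller comparisons moved most. For Cre within Snf5-null tumours 940 genes became 559 with N43L and N43R summed, 124 with N31 and N33 summed and 2256 by DESeq2. For Cre within combined tumours 344 became 23 with only the groups compared, 206 and 201 with those sums, and 1465 by DESeq2. For the interaction 458 became 259, 79 and 1496. For the SS18-SSX groups 400 became 115 without the low-count filter, 1 with only the groups compared, 238 with N31 and N33 summed and 1371 by DESeq2. The cause was not tested. The Sez6l interaction was 4.47 (edgeR adjusted p = 0.0593) with only the groups compared and 4.34 (0.112) with N31 and N33 summed. Sez6l in combined against SS18-SSX tumours was -0.32 with Myf5Cre alone, and against Snf5-null tumours 2.76 with TATCre alone. DESeq2 gave Sez6l -2.31 between the SS18-SSX groups (adjusted p = 0.0463). Sez6l2 in combined against Snf5-null tumours was -0.10 with Myf5Cre alone. With only the groups compared, Sez6l was too low to be tested for Cre in Snf5-null tumours.

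With 1 library left out, genes called ranged from 122 (without N31) to 1959 (without Snf5-null TATCre N1) for Cre in Snf5-null, 55 (without Myf5Cre N4) to 611 (without 78777) for Cre in combined, 60 (without N31) to 1053 (without Snf5-null TATCre N1) for the interaction, and 33 (without B) to 792 (without N2) for the SS18-SSX groups. Sez6 ranged from 0.063 to 2.55 for Cre in combined and from 1.98 to 4.58 for the interaction, both highest without 78777. Sez6l ranged from -2.05 to 0.31 (without N1) for Cre in Snf5-null, 2.97 to 3.46 for Cre in combined, 2.95 to 5.29 for the interaction and -2.70 to -1.78 for the SS18-SSX groups. Sez6l2 ranged from -0.34 to 0.10 against SS18-SSX in combined tumours and from -0.49 to 0.00072 in Snf5-null tumours, both highest without N381. Depth limits Sez6l in Snf5-null tumours and Sez6l2 everywhere.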
